A study of Caenorhabditis elegans with 12 samples.

Results

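The genes described here are 9 components of the insulin-like signalling pathway of Caenorhabditis elegans, chosen by name from the 18467 genes of the deposited count table. They are daf-2, age-1, pdk-1, akt-1, akt-2, sgk-1, daf-18, daf-16 and the noncoding RNA tts-1, and all 9 were found and passed the filter on low counts. RNA was sequenced from whole wild-type N2 worms, the standard laboratory strain, fed bacteria for RNA interference (RNAi) against 1 of 3 subunits of the vacuolar H+-ATPase, a pump that moves protons into lysosomes and other compartments. The 4 groups were control RNAi and RNAi of vha-6, of vha-16 or of vha-19, with 3 libraries each and 12 in all, and animals are named below by their target as vha-6 worms and so on. The 3 vha groups received 25% target bacteria mixed with 75% control bacteria. RNAi began at the first larval stage, and all groups were collected after 2.5 days at 20 °C, between the last larval stage and young adulthood. No mutant or transgene was involved, so each group is a feeding treatment of intact animals rather than a genetic loss of the pump. The study is titled as one of a lysosomal surveillance response that extends healthspan, and the comparisons ask how the pathway's transcripts stood when each subunit was depleted.

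In this pathway insulin-like peptides bind DAF-2, the worm's insulin and IGF-1 receptor. The signal passes through AGE-1, the catalytic subunit of phosphoinositide 3-kinase, whose lipid product is removed by the lipid phosphatase DAF-18. The lipid activates PDK-1, which with other inputs activates the kinases AKT-1, AKT-2 and SGK-1. AKT kinases phosphorylate DAF-16, the worm's FOXO transcription factor, and so hold it outside the nucleus. Animals with little DAF-2 or AGE-1 activity form dauer larvae or live long, both of which require DAF-16. The long noncoding RNA tts-1 is abundant in long-lived daf-2 mutants and associates with ribosomes. Transcript levels do not report the phosphorylation steps through which the pathway acts.

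Each library held 21981854 to 22553227 counts in genes. Levels are CPM, in which counts are divided by the size of their library, corrected by the TMM method (a trimmed mean of log ratios between libraries), and changes are log2 fold changes from edgeR's quasi-likelihood test over all genes, called at an adjusted p (Benjamini-Hochberg) under 0.05. Transcriptome-wide change was broad, with 89.4% of 17043 genes called in vha-6 worms, 89.8% in vha-16 worms and 89.9% in vha-19 worms against control. The choice of scaling mattered as well. Library totals in place of TMM moved the changes against control by a median of 0.45, 0.52 and 0.54 (log2) in the same order, and DESeq2's size factors moved them by -0.14, -0.19 and -0.17. The share of called genes that were higher went from 53.6%, 53.4% and 53.0% to 63.9%, 65.2% and 65.3% with library totals. Changes of the members are therefore given with the value under library totals where that alters their size or direction. Each targeted gene had its lowest level where it was the target (vha-6 at -2.098, vha-16 at -0.71 and vha-19 at -1.11 against control, log2 fold changes). With TMM, falls were not limited to the target, as vha-6 also fell in vha-16 worms (-1.66) and vha-19 worms (-1.79). There were also falls of vha-19 in vha-16 worms (-0.56) and of vha-16 in vha-19 worms (-0.22). In vha-6 worms vha-16 and vha-19 rose (0.98 and 0.74). The falls of -0.56 and -0.22 were near or under the median shifts with library totals (0.52 in vha-16 worms, 0.54 in vha-19 worms). The vha-16 fall in its own group (-0.71) was not much larger. Whether these falls hold with library totals was not tested. Worms of the vha groups also differed from control in tissue and stage transcripts. All 10 genes of an oocyte and embryo list were called lower in each vha group, with summed levels of 10771 to 11028.5 CPM in control libraries and 1112 to 1399 CPM in the others. All 10 sperm genes were higher (182 to 192 against 622 to 667 CPM), as were all 10 moulting genes (184 to 189.6 against 716 to 882 CPM). No gene of these lists was at 0 in any group. The part of these shifts in the changes below was not tested, and in whole worms fewer cells of a type and less RNA per cell cannot be told apart.

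Of the 9 members, 4 rose, 4 fell and 1 was not called in vha-6 worms, while 4 rose and 5 fell in vha-16 worms and likewise in vha-19 worms, daf-2 being the fifth, whose direction turned with the scaling. Rises were found in 47.9%, 48.0% and 47.7% of all genes and falls in 41.4%, 41.9% and 42.2%, so the number of members called lay near that of genes at large. The direction of 8 members was the same in each comparison with control. The comparisons use the same 3 control libraries and so are not independent. The noncoding RNA tts-1, sgk-1, akt-2 and daf-16 were higher, and daf-18, pdk-1, age-1 and akt-1 were lower. The median change of the members was 0.0013, -0.26 and -0.14, beside 0.24, 0.20 and 0.19 over all genes. The median member is daf-2 itself, and with library totals the median turned to 0.45, 0.26 and 0.40. Members changed by 2-fold or more numbered 2 higher and 3 lower in vha-6 worms, where 32.0% and 22.7% of all genes did so, and 3 higher and 3 lower in each of the other groups, where 34.4% and 24.8% (vha-16) and 33.7% and 24.9% (vha-19) did. With library totals these counts were 3 higher and 1 lower, 4 higher and 1 lower, and 4 higher and 2 lower in the same order.

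**Figure D1:**
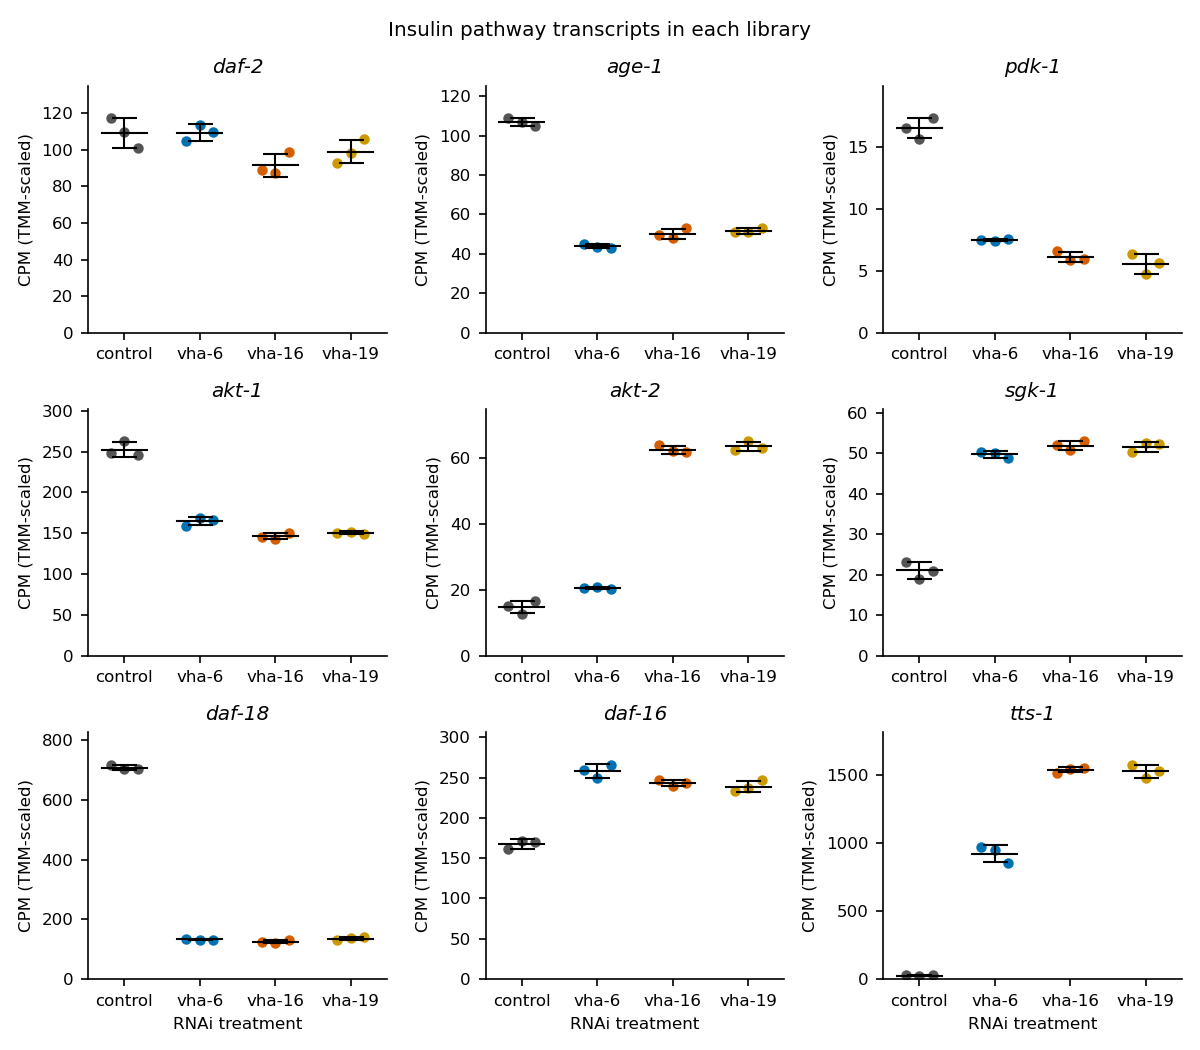
Level of each of the 9 transcripts in TMM-scaled CPM (vertical axes start at 0) in the 3 libraries of each RNAi treatment, with points for libraries and bars for mean ± SD (n = 3). The control libraries stand apart from all vha libraries for 8 genes, and those of daf-2 overlap with vha-6 and vha-19 libraries. The share of all genes that separate in this way is not given, but 89.4% to 89.9% of them were called against control.

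The receptor gene daf-2 (WBGene00000898, chromosome III, 2994514 to 3040846, WBcel235, minus strand) changed little. It stood at 117, 109.8 and 101 CPM in control, 105, 114 and 109.6 CPM in vha-6 worms, 88.7, 87.1 and 98.9 CPM in vha-16 worms, and 93.0, 98.2 and 106 CPM in vha-19 worms. The vha-6 and vha-19 libraries overlapped the controls, and the vha-16 libraries lay just under them. The change was 0.0013 (SE 0.0505, adjusted p = 0.982) in vha-6 worms, -0.26 (SE 0.0510, adjusted p = 2.47e-05) in vha-16 worms and -0.14 (SE 0.0507, adjusted p = 0.00959) in vha-19 worms by edgeR. These small differences turned on the scaling, since with library totals all 3 were higher than control (0.45, 0.26 and 0.40, called in each). Keeping only genes that averaged 5 CPM or more ended the vha-16 call (-0.073, adjusted p = 0.192 by edgeR) and made the vha-6 change a called rise (0.20). The vha-19 call was lost with that filter too (0.039). It was also lost without control replicate 1 (-0.0927, adjusted p = 0.112 by edgeR) or vha-19 replicate 1 (-0.0768, adjusted p = 0.169). No direction is therefore given for daf-2.

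The transcript of the kinase gene age-1 (WBGene00000090, chromosome II, 11519328 to 11527054, minus strand) was lower in all vha groups. It went from 105 to 109 CPM in control libraries to 43.0 to 45.1 CPM in vha-6 worms, 48.2 to 52.9 CPM in vha-16 worms and 50.9 to 53.3 CPM in vha-19 worms. No vha library came near a control library, and the vha-6 libraries lay below those of the other knockdowns. The fall was to 41.04%, 46.9% and 48.3% of control (log2 fold changes -1.29, -1.09 and -1.05, adjusted p = 9.05e-25, 4.51e-23 and 1.23e-22 by edgeR). With library totals these were -0.84, -0.57 and -0.51, all called and under 2-fold. On the opposite strand, 192 bases of age-1 exon are shared with the gene B0334.10, and the strand setting of the counting is not given in the sources used here, so a few reads may belong to either. The same holds for 15 bases of pdk-1, shared with F21E9.2, and 8 bases of akt-1, shared with rop-1. For daf-16 the annotation has 84 such bases in common with the noncoding gene H36N01.5, which was not analysed here.

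The gene for its opposing phosphatase, daf-18 (WBGene00000913, chromosome IV, 420011 to 425177, minus strand), fell furthest of the members. It was read at 717, 704 and 701 CPM in control. The values were 136, 132 and 130.1 CPM in vha-6 worms, 126, 121 and 131 CPM in vha-16 worms and 129, 136 and 141 CPM in vha-19 worms. The 9 vha libraries thus sat together far below the 3 controls. The level was 18.7% (log2 fold change -2.42, SE 0.0363, adjusted p = 2.48e-34), 17.7% (-2.49, adjusted p = 6.77e-35) and 19.1% (-2.39, adjusted p = 1.92e-34) of control by edgeR, and with library totals it was -1.97, -1.98 and -1.84. Ranked by size, the vha-6 fall was number 784 among 17043 genes. The daf-18 fall went with that of the oocyte and embryo list, whose median change was -3.17, -3.39 and -3.32, and the part of oocytes in it was not tested.

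Because both of these genes fell, their balance was read as a ratio of raw counts within each library, which no scaling can alter. There were 6.58 to 6.69 counts of daf-18 for each count of age-1 in control libraries, 3.01 to 3.03 in vha-6 worms, 2.47 to 2.54 in vha-16 worms and 2.54 to 2.68 in vha-19 worms. The phosphatase transcript lost ground to the kinase transcript in every vha library, by -1.13 ± 0.00419, -1.40 ± 0.0200 and -1.34 ± 0.0403 on the log2 scale (SD of the vha group, n = 3). The SD of the control libraries was 0.0131. Here and for the ratios below the exact two-sided permutation test gave p = 0.1, the smallest that 3 against 3 libraries allow, in each of 12 comparisons (0.1 after Benjamini-Hochberg adjustment).

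The kinase gene pdk-1 (WBGene00003965, chromosome X, 1321344 to 1327986, plus strand) had the lowest CPM of the members in the vha groups. It was read at 15.7 to 17.3 CPM in control, 7.41 to 7.58 CPM in vha-6 worms, 5.87 to 6.60 CPM in vha-16 worms and 4.72 to 6.34 CPM in vha-19 worms, on 119 to 291 counts per library. All vha libraries were below all controls. The change was -1.14 (SE 0.0876, adjusted p = 3.79e-14), -1.43 (adjusted p = 1.61e-16) and -1.58 (adjusted p = 1.65e-17) by edgeR, and -0.70, -0.91 and -1.03 with library totals.

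The paired AKT kinase genes moved in opposite directions. The akt-1 gene (WBGene00000102, chromosome V, 10248905 to 10252845, plus strand), the more abundant of the pair, stood at 248, 263 and 246 CPM in control, at 159, 169 and 166 CPM in vha-6 worms, at 146, 143 and 149.9 CPM in vha-16 worms and at 151, 152 and 149 CPM in vha-19 worms. The akt-2 gene (WBGene00000103, chromosome X, 14147700 to 14152070, plus strand) stood at 15.1, 12.7 and 16.6 CPM in control, 20.6, 20.98 and 20.3 CPM in vha-6 worms, 63.98, 62.1 and 61.7 CPM in vha-16 worms and 62.6, 65.1 and 62.9 CPM in vha-19 worms. For akt-1 every vha library was below every control library, and for akt-2 every one was above. The akt-1 changes were -0.61, -0.79 and -0.74 (SE 0.0348 to 0.0350, adjusted p = 1.04e-17, 7.75e-21 and 3.78e-20 by edgeR), but only -0.17, -0.27 and -0.20 with library totals, all still called. The akt-2 changes were 0.48 (SE 0.0698, adjusted p = 1.33e-07), 2.08 (SE 0.0588, adjusted p = 1.31e-26) and 2.102 (SE 0.0586, adjusted p = 9.05e-27), and 0.92, 2.60 and 2.64 with library totals.

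Among the members, the difference of vha-6 worms from the other knockdowns was largest for akt-2. Under vha-6 RNAi its level was 32.9% of that in vha-16 worms (log2 fold change -1.60, SE 0.0514, adjusted p = 1.9e-24 by edgeR) and 32.5% of that in vha-19 worms (-1.62, adjusted p = 1.35e-24). Of all genes, 8.15% and 7.03% were lower by 2-fold or more in these comparisons. Of the 9 members akt-2 was the 1 among them, a number near that of genes at large. In raw counts there were 14.8 to 20.6 of akt-1 for each of akt-2 in control libraries, 7.73 to 8.21 in vha-6 worms, 2.28 to 2.43 in vha-16 worms and 2.34 to 2.41 in vha-19 worms. The groups did not overlap with control, and the ratio in vha-6 worms lay between control and the other knockdowns. The difference from control was -1.10 ± 0.0440, -2.87 ± 0.0494 and -2.85 ± 0.0212 (log2, SD of the vha group, n = 3). Control libraries spread more, with an SD of 0.244. A list of 10 neuronal genes, all 10 of them higher in worms of the vha-16 and vha-19 groups and 9 of 10 in vha-6 worms, was at 601 to 614 CPM (summed) in control, 994 to 1004 CPM in vha-6 worms, 1433 to 1485 CPM in vha-16 worms and 1303 to 1315 CPM in vha-19 worms. Its part in the akt-2 result was not tested.

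The kinase gene sgk-1 (WBGene00004789, chromosome X, 16254842 to 16262122, minus strand) rose in all knockdowns. It was read at 23.2, 18.99 and 21.04 CPM in control, 50.3, 50.1 and 48.8 CPM in vha-6 worms, 51.9, 50.7 and 52.9 CPM in vha-16 worms and 50.2, 52.5 and 52.1 CPM in vha-19 worms. All vha libraries were above all controls, by 1.24, 1.30 and 1.29 on the log2 scale (SE 0.0546 to 0.0553, adjusted p = 9.72e-21, 1.54e-21 and 1.74e-21 by edgeR). With library totals these rises were 1.68, 1.82 and 1.83. Between knockdowns the differences were -0.060 (SE 0.0447, vha-6 minus vha-16), -0.054 (SE 0.0447, vha-6 minus vha-19) and 0.0065 (SE 0.0441, vha-16 minus vha-19), none of them called, although the first became -0.13 and the second -0.15, both called, with library totals. For each count of akt-1 there were 0.0723 to 0.0936 of sgk-1 in control and 0.293 to 0.356 over all vha libraries.

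**Figure D2:**
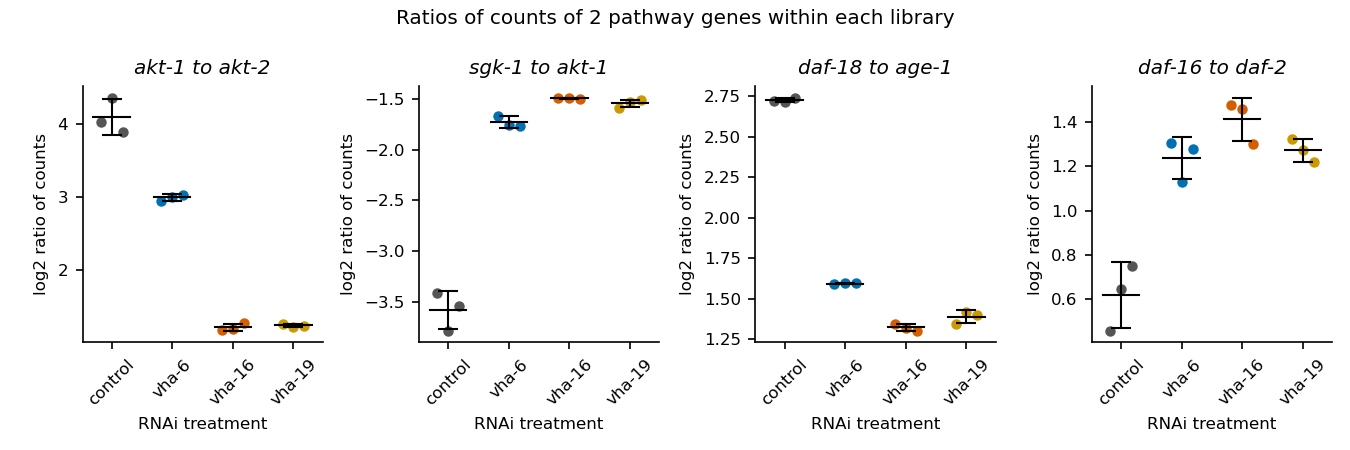
Log2 ratio of the raw counts of 2 genes in the same library, for akt-1 to akt-2, sgk-1 to akt-1, daf-18 to age-1 and daf-16 to daf-2, by RNAi treatment, with points for libraries and bars for mean ± SD (n = 3). Vertical axes do not start at 0 and differ between panels. In each panel the control libraries lie apart from all vha libraries.

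The transcription factor gene daf-16 (WBGene00000912, chromosome I, 10750498 to 10776703, plus strand) rose in each knockdown. Its level was 161, 172 and 169.7 CPM in control, 259, 249 and 266 CPM in vha-6 worms, 247, 239 and 243 CPM in vha-16 worms and 233, 237 and 247 CPM in vha-19 worms. The control libraries were all below the vha libraries, which spanned a narrow band. The changes were 0.62 (SE 0.0357, adjusted p = 1.24e-17), 0.54 (SE 0.0357, adjusted p = 7.04e-16) and 0.51 (SE 0.0357, adjusted p = 2.82e-15) by edgeR, or 1.07, 1.06 and 1.05 with library totals. The annotation lists 11 transcripts of daf-16, which gene counts do not tell apart. Per count of daf-2 there were 1.37 to 1.68 of daf-16 in control, 2.19 to 2.47 in vha-6 worms, 2.46 to 2.78 in vha-16 worms and 2.33 to 2.50 in vha-19 worms. The ratio was therefore higher in every vha library, by 0.62 ± 0.0951, 0.79 ± 0.0976 and 0.65 ± 0.0517 (log2, SD of the vha group, n = 3). Control libraries spread more here too, with an SD of 0.148.

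The noncoding RNA tts-1 (WBGene00006650, chromosome X, 1504131 to 1504841, minus strand) showed the largest change of the members. It was read at 26.5, 22.3 and 27.2 CPM in control. It reached 971, 949.6 and 853 CPM in vha-6 worms, 1519, 1551 and 1557 CPM in vha-16 worms and 1579.6, 1482 and 1529 CPM in vha-19 worms, on 379 to 457 counts per control library and 20034 to 39894 per vha library. The groups were far apart, and the vha-6 libraries also lay below all vha-16 and vha-19 libraries. The rise was 36.5-fold (log2 fold change 5.19, SE 0.0551, adjusted p = 2.11e-38), 60.8-fold (5.93, SE 0.0556, adjusted p = 7.73e-40) and 60.4-fold (5.92, SE 0.0556, adjusted p = 6.91e-40) by edgeR. With library totals the log2 fold changes were 5.64, 6.45 and 6.46. It ranked 73, 88 and 81 from the top among 17043 genes. No annotated gene overlaps its exons.

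**Figure D3:**
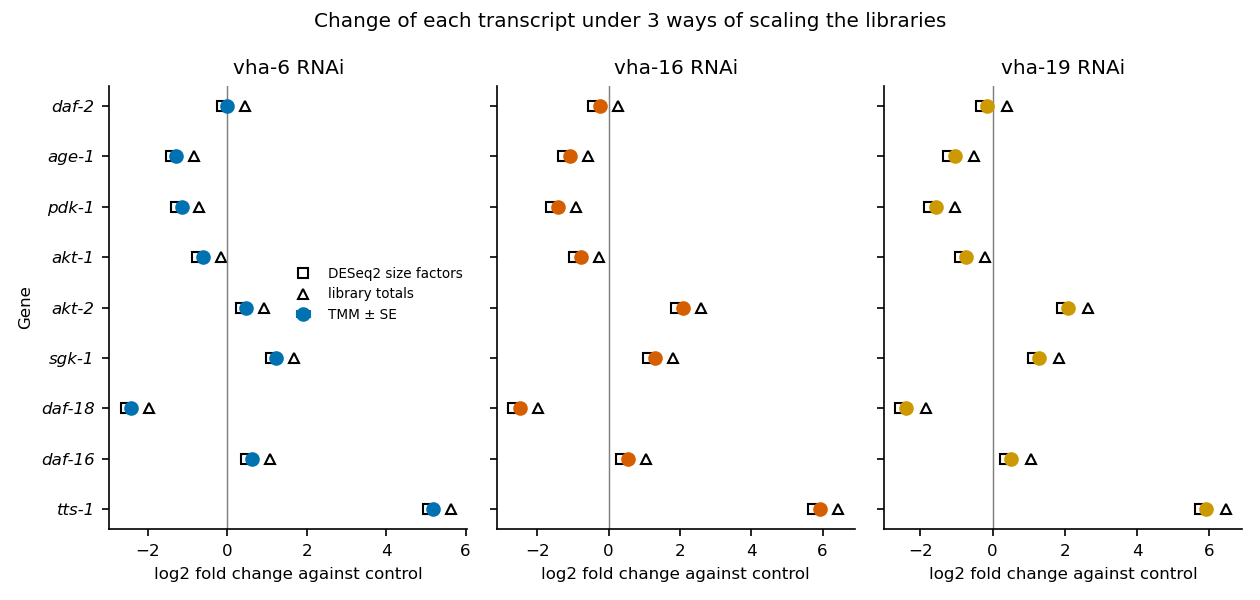
Log2 fold change of each member against control in worms of each vha target. Filled circles with bars are the TMM-scaled estimate ± SE (12 libraries in the model), squares the estimate with DESeq2's size factors and triangles that with library totals. The 3 scalings share a direction for every member except daf-2, which lies on both sides of 0.

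Set against each other, vha-16 and vha-19 RNAi differed in the call of 1 member, daf-18 (-0.11 for vha-16 minus vha-19, SE 0.0370, adjusted p = 0.0378 by edgeR), where 7.56% of all genes were lower, 9.81% higher and 17.4% called in all. With library totals 44.8% of all called genes were higher in this comparison, against 56.5%. That call was lost without vha-16 replicate 2 (-0.096, adjusted p = 0.102), without vha-19 replicate 3 (-0.099, adjusted p = 0.11), or in a fit to these groups alone (-0.12, adjusted p = 0.058). The other 8 members differed by -0.11 (daf-2, SE 0.0496) to 0.15 (pdk-1, SE 0.104) and were not called, though without vha-16 replicate 3 or vha-19 replicate 1 daf-2 was called as well (-0.19 and -0.17).

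Against vha-16 RNAi, vha-6 RNAi had 4 members higher and 3 lower, where 31.2% and 31.6% of all genes were called (62.8% in all). Against vha-19 RNAi the same counts stood beside 29.0% and 29.5% (58.4% in all), and 36.5% of called genes were higher with library totals, against 49.6%. No member was higher by 2-fold or more in either, where 7.40% and 6.30% of all genes were. The lower members in both were akt-2, tts-1 (-0.74 and -0.73, SE 0.0397 in both, adjusted p = 6.23e-18 and 1.09e-17 by edgeR) and age-1 (-0.19 and -0.24, SE 0.0436 and 0.0433, adjusted p = 0.000221 and 1.53e-05). The higher members were smaller shifts of pdk-1 (0.29 and 0.43), daf-2 (0.26 and 0.14), akt-1 (0.17 and 0.13) and daf-16 (0.085 and 0.11). The phosphatase gene daf-18 was not called against vha-16 RNAi (0.078, SE 0.0373, adjusted p = 0.068), but was called higher with DESeq2's size factors (0.13, adjusted p = 0.00256) and without vha-16 replicate 1 (0.11, adjusted p = 0.0222) or replicate 3 (0.14, adjusted p = 0.00417). With library totals the number of higher members fell to 2 and 1. The calls lost were those of daf-16 in both comparisons (0.012 and 0.015), pdk-1 against vha-16 RNAi (0.21), and akt-1 and daf-2 against vha-19 RNAi (0.035 and 0.048). Leaving out vha-6 replicate 3 also ended the daf-16 calls in both comparisons (0.061, adjusted p = 0.181, and 0.088, adjusted p = 0.0571 by edgeR). Leaving out vha-6 replicate 1 ended the first (0.082, adjusted p = 0.0756). The daf-2 difference from vha-19 RNAi was also lost without vha-6 replicate 2 (0.11, adjusted p = 0.0838) or vha-19 replicate 1 (0.11, adjusted p = 0.061). All 10 genes of a body-wall muscle list were higher in vha-6 worms than in either other group, with summed levels of 10830 to 11091 CPM against 5408 to 5826 CPM. The intestinal genes summed to 14401 to 15222 CPM against 2978 to 3099 CPM, but did not all go 1 way. Of 9 tested, 7 were higher in both comparisons, while 1 was lower against vha-16 RNAi and 2 were lower against vha-19 RNAi. Control libraries were at 8433 to 9173 CPM for muscle, and the part of these lists in the differences was not tested.

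To set the genes beside each other, CPM was divided by the length of each gene's merged exons, from 711 bases for tts-1 to 8296 for daf-2. In control worms daf-18 led, at 212 ± 2.59 CPM per kb (SD, n = 3), followed by akt-1 (111 ± 4.03 CPM per kb), daf-16 (45.5 ± 1.54), tts-1 (35.7 ± 3.71) and age-1 (27.2 ± 0.510). Then came daf-2 (13.2 ± 0.996) and sgk-1 (12.9 ± 1.29), whose libraries overlapped, and pdk-1 (6.83 ± 0.344) and akt-2 (6.22 ± 0.814), whose libraries also did. Under vha-6 RNAi tts-1 was first (1300.3 ± 88.1 CPM per kb), and akt-1 (72.4 ± 2.20) and daf-16 (70.0 ± 2.35) overlapped behind it. Next were daf-18 (39.8 ± 0.874), sgk-1 (30.4 ± 0.508), daf-2 (13.2 ± 0.535), age-1 (11.2 ± 0.278), akt-2 (8.66 ± 0.150) and pdk-1 (3.09 ± 0.0366), with no overlap between neighbours. Under vha-16 RNAi tts-1 reached 2169 ± 28.6 CPM per kb and daf-16 (66.0 ± 1.05) and akt-1 (64.2 ± 1.61) again overlapped. The lower order was daf-18 (37.7 ± 1.51), sgk-1 (31.7 ± 0.667), akt-2 (26.3 ± 0.509), age-1 (12.8 ± 0.620), daf-2 (11.04 ± 0.769) and pdk-1 (2.53 ± 0.166). In vha-19 libraries tts-1 stood at 2152 ± 68.5 CPM per kb, akt-1 (66.1 ± 0.727) and daf-16 (64.8 ± 1.94) overlapped, and the others kept the vha-16 order, from daf-18 (40.6 ± 1.78) to pdk-1 (2.29 ± 0.334). Receptor, lipid kinase and PDK-1 transcripts were thus the low end in every vha group apart from akt-2 in vha-6 worms, which stood between age-1 and pdk-1.

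**Figure D4:**
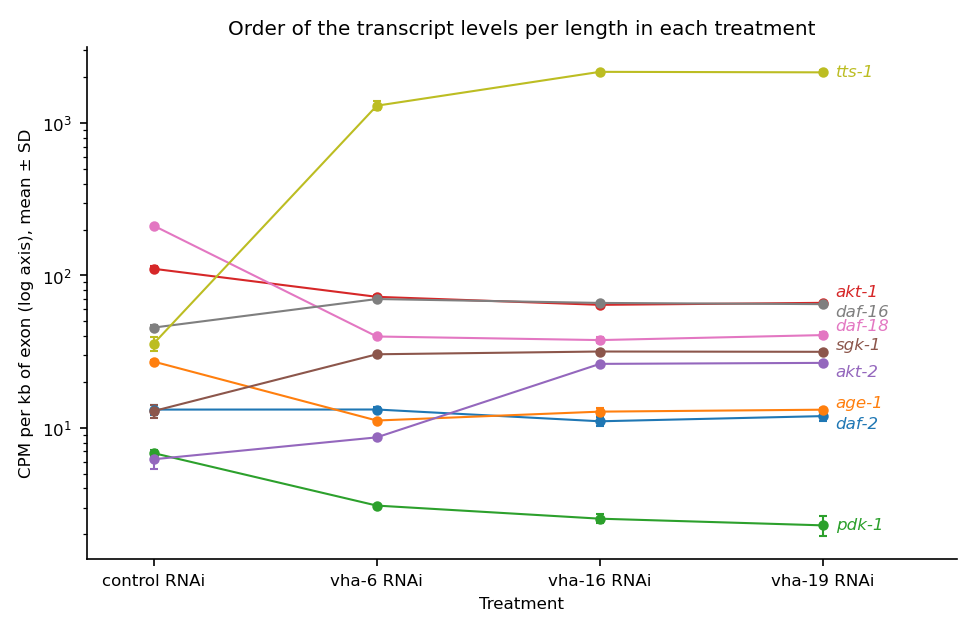
Level of each member in CPM per kb of merged exon (log axis) in the 4 groups, with points for the mean of 3 libraries and bars for SD; lines join the groups for legibility only. The lines of tts-1 and daf-18 cross between control (35.7 and 212 CPM per kb) and vha-6 RNAi (1300.3 and 39.8 CPM per kb).

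Genes whose 3 changes against control were closest to those of a member were found by the root mean square (RMS) difference of the log2 fold changes, over 11496 other genes with a mean of at least 5 CPM, as a description of 4 group means. Few genes lay near tts-1, with 3 within an RMS difference of 0.5. This distance keeps the size of the change, so genes with changes as large as these have few others near them. These were the cathepsin B-like gene cpr-3 (RMS difference 0.125, changes of 5.36, 5.98 and 6.04), F15B9.6 (0.20, changes of 5.33, 5.85 and 6.22) and the fucosyltransferase gene fut-2 (0.34, changes of 4.62, 5.86 and 5.78). In control F15B9.6 and fut-2 stood at 1.44 and 0.709 CPM, so their means passed 5 CPM only through the vha groups. The smaller changes of daf-16 and daf-2 had 1549 and 1908 genes within the same distance. Closest to daf-16 were the bestrophin gene best-20 (0.028), Y44A6D.2 (0.030) and rgs-6 (0.032), which encodes a regulator of G protein signalling. Closest to daf-2 were uda-1 (0.019), the glycosyltransferase gene gly-8 (0.039) and Y92H12BL.5 (0.042).

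Regulators of the pathway and of DAF-16 went both ways. Of 33 listed genes 28 were tested, and 10, 13 and 12 rose while 15, 12 and 12 fell in worms on vha-6, on vha-16 and on vha-19 bacteria. Of all genes, 47.9%, 48.0% and 47.7% rose and 41.4%, 41.9% and 42.2% fell. The median change of the regulators was -0.31, 0.15 and 0.050, beside 0.24, 0.20 and 0.19 over all genes, and it turned to 0.14, 0.67 and 0.59 with library totals. The largest rise was that of pqm-1, whose product binds many genes that are lowered when insulin signalling is reduced. It stood at 22.1 ± 0.506 CPM in control, 123 ± 1.21 CPM in vha-6 worms, 216 ± 3.46 CPM in vha-16 worms and 256 ± 5.34 CPM in vha-19 worms (SD, n = 3), or changes of 2.47, 3.29 and 3.53. The gene ist-1, the worm's insulin receptor substrate homologue, rose by 1.016, 1.498 and 1.19. From 2.44 CPM in control daf-9, the cytochrome P450 that makes dafachronic acids, rose by 1.72, 2.28 and 1.85. The prohormone convertase gene egl-3, which is also a neuronal marker, rose by 1.39, 1.51 and 1.34.

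Among regulators that fell was hcf-1, the host cell factor homologue that represses DAF-16, from 318 ± 7.63 CPM in control to 113 ± 2.18, 106 ± 4.10 and 108 ± 1.52 CPM (SD, n = 3; -1.49, -1.59 and -1.56). The gene eak-7, which acts in parallel to AKT-1, changed by -1.25, -1.07 and -1.09. The heat-shock factor gene hsf-1 changed by -1.44, -0.91 and -0.99. The 14-3-3 gene par-5 changed by -1.11, -0.77 and -0.80, going from 1285 ± 24.5 to 596 ± 7.16 CPM in vha-6 worms. Another listed 14-3-3 gene, ftt-2, named here after its values were seen, was called higher in every vha group (0.33, 1.04 and 1.04). Changes of rle-1, a ubiquitin ligase gene for DAF-16, were -0.73, -0.94 and -0.91. With library totals these falls were smaller, though all were still called. They were then -1.05, -1.07 and -1.02 for hcf-1, -0.81, -0.55 and -0.54 for eak-7, and -0.99, -0.39 and -0.45 for hsf-1. For par-5 they were -0.66, -0.25 and -0.25, and for rle-1 -0.29, -0.42 and -0.36. The dafachronic acid pathway oxygenase gene daf-36 changed by -0.38, -2.32 and -2.05, and the first was not called with library totals (0.064).

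Genes known to be high in daf-2 mutants, as outputs of active DAF-16, also split. Of 28 listed genes 23 were tested, of which 13, 9 and 9 rose and 8, 12 and 12 fell. Over all genes the shares were 47.7% to 48.0% higher and 41.4% to 42.2% lower. The list had medians of 0.36, -0.35 and -0.49 beside those of all genes given above. With library totals the medians were 0.81, 0.17 and 0.049, so the sign in the last 2 comparisons depended on scaling. The mitophagy receptor gene dct-1 rose from 20.6 ± 0.566 CPM to 92.1 ± 1.60, 102 ± 3.03 and 109.8 ± 3.10 CPM (SD, n = 3; 2.16, 2.31 and 2.41). The glyoxylate cycle gene icl-1 rose by 1.83, 1.71 and 1.59 and dao-4, at 2.09 CPM in control, by 3.32, 2.54 and 3.09. The metallothionein gene mtl-1, at 3.50 CPM in control, rose by 3.67 and 2.54 in worms of the vha-16 and vha-19 groups. Its rise of 0.40 in vha-6 worms was called, but not with DESeq2's size factors (0.27). The transhydrogenase gene nnt-1 rose by 2.62, 1.07 and 1.32. In the other direction were the saposin-like gene spp-1 (-1.61, -3.99 and -4.81), the desaturase gene fat-5 (-1.76, -2.48 and -2.17) and the small heat-shock gene sip-1 (-1.75, -1.94 and -2.18). The lysozyme gene lys-8 rose in vha-6 worms (1.16) and fell in the others (-2.88 and -3.09), while dao-3 fell in every vha group (-1.01, -0.83 and -0.96). The superoxide dismutase gene sod-3, a widely used DAF-16 reporter gene named here after its values were seen, was at 0.40, -0.82 and -0.67 on a mean of 5.84 CPM.

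Genes known to be low in daf-2 mutants were called in both directions too. Of 20 listed 17 were tested, of which 10, 6 and 6 rose and 6, 10 and 10 fell, with medians of 0.42, -0.87 and -1.17 (0.87, -0.35 and -0.62 with library totals), beside 0.24, 0.20 and 0.19 over all genes and the shares of 47.7% to 48.0% higher and 41.4% to 42.2% lower. The yolk protein genes vit-5 (-6.81, -8.63 and -8.65) and vit-2 (-2.59, -3.35 and -3.70) fell, vit-5 being a close copy of other vitellogenin genes. The lysosomal nuclease gene nuc-1 changed by -1.996, -2.06 and -2.07, and dod-23 by -3.80, -2.39 and -2.52. Rises were found for dod-20 (2.53, 6.24 and 6.25) and dod-19, from 192 ± 2.74 CPM to 426 ± 4.92, 2328 ± 30.7 and 2264 ± 44.0 CPM (SD, n = 3; 1.154, 3.603 and 3.56), with dao-2 at 1.91, 2.13 and 2.14. The gene dod-22 rose by 4.67, 1.53 and 0.72. Control levels of dod-20 and dod-22 were low, at 1.04 and 2.34 CPM. The insulin-like peptide gene ins-7, itself repressed by DAF-16, stood at 2.64 CPM in control. It rose by 0.49 in vha-6 worms and by 3.65 and 3.67 in worms of the vha-16 and vha-19 groups. In those same vha-16 and vha-19 comparisons dod-24 (-3.74 and -3.39) and the gut esterase gene ges-1 (-2.52 and -2.65) fell, whereas dod-24 rose in vha-6 worms (0.58, adjusted p = 1.65e-10 by edgeR). There ges-1 was called higher by 0.14, a call lost without control replicate 1, vha-6 replicate 2 or vha-6 replicate 3 (0.103 to 0.131). The 9 intestinal genes tested as tissue markers had summed levels of 5210.2 to 5488 CPM in control, 14401 to 15222 CPM in vha-6 worms, 2978 to 2993 CPM in vha-16 worms and 3047 to 3099 CPM in vha-19 worms. Of them 6 rose in vha-6 worms and 4 in each other group, the rest fell, and their part in these gut-expressed outputs was not tested.

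**Figure D5:**
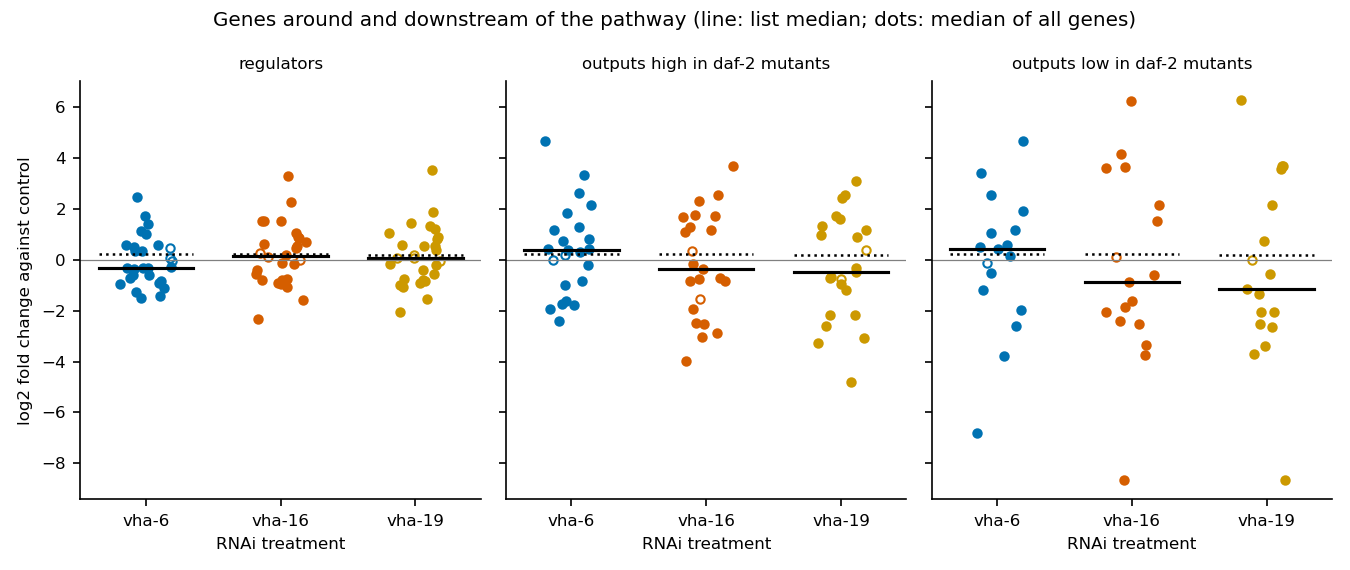
Log2 fold change against control of each tested gene in 3 lists (28 regulators, 23 outputs high in daf-2 mutants, 17 outputs low in daf-2 mutants) in worms of each vha target. Filled points were called and open points were not, solid lines are list medians and dotted lines the medians of all genes. Points lie on both sides of 0 in each list.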

How the data were processed

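Raw counts of reads for each gene, with no normalization, were deposited for 12 libraries. Per the submitters' processing notes, STAR 2.73a, edgeR 3.24.3 and WBcel235/ce11 were used by the authors. Neither the counting program nor its strand setting nor the gene filter is named in the labels. Of all reads in the table, 3 unassigned entries (reads with several alignments, ambiguous reads and reads in no gene) took 7.62% to 15.4%, 0.855% to 1.01% and 0.685% to 1.32%, and were left out.

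The tests were run with edgeR 4.0.16 (R 4.3.3). filterByExpr kept 17043 genes and removed 1424. Libraries were TMM-scaled (mean factors 0.770 for control and 1.05, 1.10 and 1.12 for RNAi of vha-6, vha-16, vha-19), 1 mean per group was fitted to all 12 libraries, and 6 contrasts were tested by quasi-likelihood with adjusted p under 0.05 as the threshold. The SE is the estimate over the square root of F. Ratios of counts had 0.5 added before logs. Exon lengths and positions came from Ensembl release 115 (WBcel235). The method was tested on simulated data with few changed genes, which does not test TMM under changes as wide as these.

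The members, lists and alternatives were chosen with earlier results of these data known. Outside the members, genes named are those called, not overlapping and with a mean of at least 5 CPM that had the 4 largest rises and 4 largest falls of each list and comparison with control, the 3 genes closest to daf-2, daf-16 and tts-1, and the 3 targets. The text says where another was chosen. Listed genes outside the table used here were not analysed here. Results of the members, and of the list genes named by this rule, were recomputed with library totals, DESeq2's size factors and no filter. Further alternatives for them were a filter at a mean of 5 CPM, the replicate block and fits to 2 groups alone. The last were limma-voom (limma 3.58.1), DESeq2 1.42.0's Wald test and leaving out each library. Ratios were recomputed with 0 added, the replicate block and each library left out. List medians were recomputed with library totals and DESeq2's size factors only. The targeted genes, tissue lists, levels per kb, closest patterns, ftt-2 and sod-3 are given under the main settings alone. Python 3.11.15 with scipy 1.17.1 and matplotlib 3.10.9 was used for exact tests and figures.

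The labels do not say whether replicates were separate cultures, so the p-values reflect only how far these samples spread, and that spread may be technical. The biological coefficient of variation was 2.99%. Libraries of a group differed by more than sampling noise (chi-square per degree of freedom 1.52 to 2.92 in 12 pairs), so none was counted as a copy of another.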

Additional observations from a re-analysis of the deposited data

Results flagged for a closer look

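The share of reads that lay in no annotated gene, an entry that the comparisons do not use, was higher in every vha library than in any control library. It was 0.693% ± 0.00876 in control, 0.995% ± 0.00461 in vha-6 worms, 1.30% ± 0.0206 in vha-16 worms and 1.27% ± 0.0223 in vha-19 worms (SD, n = 3 each). Reads with several alignments also separated the groups, at 15.1% to 15.4% in control libraries against 9.45% to 9.54% in vha-6 worms, 7.62% to 7.67% in vha-16 worms and 8.06% to 8.10% in vha-19 worms. The part of either share in the results was not tested.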

How the results depend on the processing

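Against control, the direction and call of age-1, pdk-1, akt-1, akt-2, sgk-1, daf-18, daf-16 and tts-1 held under all alternatives run, and those of daf-2 did not. Under vha-6 RNAi daf-2 was -0.13, called lower, with DESeq2's size factors and with its Wald test, and -0.058 to 0.050 when leaving out 1 library. The filter at a mean of 5 CPM made daf-2 a called rise there (0.20, adjusted p = 0.000947 by edgeR). With library totals it was 0.26 in vha-16 worms and 0.40 in vha-19 worms, where the filter at a mean of 5 CPM gave 0.039. For vha-16 minus vha-19, sgk-1 was -0.011 with DESeq2's size factors and Wald test, -0.017 with library totals, -0.00291 in the fit to these groups alone and -0.032 to 0.0068 leaving out 1 library. In the same order tts-1 was -0.0064, -0.012 (library totals) and -0.028 to 0.017 (1 library left out), and daf-16 was -0.0098 to 0.031. For vha-6 minus vha-19, daf-18 was 0.0059 with DESeq2's size factors and Wald test and -0.051 to 0.011 leaving out 1 library, and library totals made it a called fall of -0.13 (adjusted p = 0.00354). None of these near-zero differences was called in the main analysis, other than those of daf-2 against control. Under vha-6 RNAi ges-1 was -0.00013 with DESeq2's size factors and -0.00017 with its Wald test, and daf-36 was 0.064 with library totals. The number of members called between vha-16 and vha-19 went from 1 to 0 in the fit to these groups alone (0 lower) and ranged from 0 to 2 when leaving out 1 library. With library totals the members higher were 2 (vha-6 minus vha-16) and 1 (vha-6 minus vha-19, with 5 lower). The medians of regulators were -0.45, -0.042 and -0.12 with DESeq2's size factors and 0.14, 0.67 and 0.59 with library totals (vha-6, vha-16, vha-19). Those of outputs high in daf-2 mutants were 0.23, -0.55 and -0.67, and 0.81, 0.17 and 0.049. Those of outputs low in daf-2 mutants were 0.28 (vha-6) and -1.06 (vha-16) and, for library totals, 0.87, -0.35 and -0.62. Beyond the scaling factors themselves the cause was not tested. Deviations of same-numbered libraries of different groups had correlations of -0.035 to 0.050, and those of other pairs -0.026 to 0.031. Between vha-16 and vha-19 the same-numbered pairs were at 0.027, 0.028 and 0.050, and the other pairs were all negative. Correlations this small do not settle whether a number marks a shared culture or batch. The replicate block left the call of 54 of 54 member results as it was. In this balanced design the replicate block cannot move a mean difference of ratios (-2.87 for akt-1 to akt-2 in vha-16 worms), so it says nothing of their stability. For the ratios, 0 added to the counts left every direction as it was. At 119 to 160 counts in vha-19 libraries, pdk-1 is the member that depth limits most.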
